A study of Mus musculus with 6 samples.

Results

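The regulators of G-protein signalling described here were 10 genes of the mouse Rgs family, namely Rgs2, Rgs4, Rgs7, Rgs8, Rgs10, Rgs12, Rgs14, Rgs16, Rgs17 and Rgs20, taken by gene symbol from 55471 gene identifiers. The group was chosen by a measured value, the strong fall of Rgs20 in Opa1 knock-down neurons. The fold changes of its genes between the groups, and the calls made on them, are therefore given as a description, and no call among them is taken as support. The annotation listed 21 Rgs genes, all with at least 1 count in these libraries, and the other 11 are reported beside the 10.

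RNA was sequenced from cultured primary cortical neurons of CD1 mouse embryos taken at or shortly before embryonic day 15. Ara-C at 2 uM was present in both groups to stop dividing cells, lentivirus was added on day 6, and RNA was collected on day 11. The 3 shControl libraries (genotype WT) received a control short hairpin RNA. The 3 shOpa1 libraries (genotype Opa1 knock-down) received a hairpin directed against Opa1, the gene of a dynamin-like GTPase that fuses inner mitochondrial membranes. The labels call the libraries of a group biological replicates. They do not give the hairpin sequences, how many hairpins were used or the promoter that drove them.

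RGS proteins shorten G-protein signals. A ligand-bound receptor loads a G alpha subunit with GTP, alpha and beta-gamma subunits then act on enzymes and ion channels, and the RGS domain speeds GTP hydrolysis by the alpha subunit, which ends the signal. In neurons they set how long receptors for transmitters such as GABA, acetylcholine, dopamine and endocannabinoids act on potassium channels, calcium channels, adenylyl cyclase and phospholipase C. The family is divided into R4 proteins, which are small and act on Gi/o and often Gq, R7 proteins, which need a dedicated G beta subunit, R12 proteins, of which the larger also bind inactive G alpha and Ras-like GTPases, and RZ proteins, which act on Gz and Gi.

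Libraries held 24676709 to 32961580 counted reads. Opa1 was measured at 201.8, 204.6 and 201.9 CPM (read counts relative to the TMM-scaled library total) in the shControl libraries and at 10.2, 8.64 and 8.50 CPM in the shOpa1 libraries. Neuronal markers were abundant, with the summed level of 7 of them between 7039 and 7849 CPM in shControl and between 5554 and 6143 CPM in shOpa1. In a principal component analysis the first component (61.6% of variance) separated the groups, and the second (25.0%) set replicate 3 of both groups, at -29.4 and -30.4, apart from the other 4 libraries, at 13.8 to 16.4. In these bulk libraries fewer cells of a type and less RNA per cell cannot be told apart. Comparisons used edgeR's quasi-likelihood test over 16562 genes, with a gene called at a Benjamini-Hochberg adjusted p under 0.05.

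The sequence GAAACTA in 3′ untranslated regions (UTRs) is shown first because an earlier search of these same fold changes had picked it as the sequence whose carriers lay lowest in shOpa1, so its presence here is no independent evidence. In the longest annotated 3′ UTR of each gene (GENCODE M21 on GRCm38), 1332 of 13841 tested genes, or 9.62%, carried it. Among the 10 Rgs genes it was present in Rgs20 and Rgs17 and in none of the other 8. Each site is printed with 10 bases on either side, 5′ to 3′ on the strand of the gene, with the 7 matching bases in capitals.
Rgs20, base 159 of an 898-base UTR, GRCm38 chr1:4910299-4910325, minus strand: attcacaatgGAAACTAcaactgcctt
Rgs17, base 3638 of a 7290-base UTR, GRCm38 chr10:5829299-5829325, minus strand: tgtaattgtgGAAACTAcacttgcaac
Rgs17, base 5339 of the same UTR, GRCm38 chr10:5827598-5827624, minus strand: attctatcatGAAACTAtgaatagaaa
The site was annotated in 2 of 3 Rgs20 transcripts and 2 of 3 Rgs17 transcripts with a 3′ UTR. Both genes belong to the RZ class, and their levels between the groups differed: Rgs20 was 3.56-fold lower in shOpa1, while Rgs17, with 2 copies in a UTR 7290 bases long, was at a log2 fold change of -0.16 ± 0.21 (SE). The longest UTR of Rgs8, at 7416 bases, held no copy. In the rest of the family, Rgs5, Rgs13 and Rgs21 carried 1 copy each in their longest UTR. The longest UTR of Rgs19, the remaining RZ gene, held no copy, but 3 of its 7 transcripts with a 3′ UTR did. A match is a description of letters and not a site of action.

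Promoter windows of 300 bases (250 before and 50 after the annotated start, RefSeq, GRCm38.p6) were at hand for 8 of the 10 genes, in 11 entries. There was none for Rgs14 or for Rgs20, so nothing below covers Rgs20. They were searched on both strands for the cAMP response element TGACGTCA, for its TGACG core and for the C/EBP-ATF composite TGATGNAA, where N is any base and the core also lies inside the full element. The full element was present in 0 of the 11 windows and in 1.79% of all 32851 promoters, and the composite in 0 and in 3.97%. The core was present in 20.8% of all promoters, and among the Rgs genes in Rgs2 and Rgs4, with 2 copies each, in 1 of 3 Rgs8 windows and in 1 of 2 Rgs12 windows. The windows of Rgs2 and Rgs4 are shown because these R4 genes had the highest levels per length of their class and the most copies of the core, and capitals mark TGACG or its reverse complement.
Rgs2, GRCm38.p6 chr1:144004100-144004399, minus strand: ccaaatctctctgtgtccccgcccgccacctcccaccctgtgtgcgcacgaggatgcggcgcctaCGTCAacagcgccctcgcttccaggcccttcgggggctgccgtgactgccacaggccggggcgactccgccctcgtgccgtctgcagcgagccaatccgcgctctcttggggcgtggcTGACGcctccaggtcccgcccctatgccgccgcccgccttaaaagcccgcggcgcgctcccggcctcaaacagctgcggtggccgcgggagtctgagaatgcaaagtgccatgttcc
Rgs4, GRCm38.p6 chr1:169747593-169747892, minus strand: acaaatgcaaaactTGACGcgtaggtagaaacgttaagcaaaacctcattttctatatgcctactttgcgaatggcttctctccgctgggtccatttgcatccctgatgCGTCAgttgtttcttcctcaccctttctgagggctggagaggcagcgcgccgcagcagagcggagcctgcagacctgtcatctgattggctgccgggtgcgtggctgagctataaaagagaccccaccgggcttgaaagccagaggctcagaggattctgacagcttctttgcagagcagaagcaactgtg
The copies began 185 and 67 bases before the start of Rgs2 and 236 and 141 bases before that of Rgs4. The GC content was 70.0% for Rgs2 and 53.0% for Rgs4, and from 53.0% to 76.0% over all 11 windows, beside a median of 52.7% for all promoters. No level of a factor that binds these letters was measured.

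All 10 Rgs genes passed the filter on low counts. By the threshold above 2 were called higher in shOpa1 (Rgs2 and Rgs7), 2 lower (Rgs10 and Rgs20) and 6 in neither direction. Over all tested genes 38.9% were called, 18.9% higher and 20.0% lower. The 3 shOpa1 libraries did not overlap the 3 shControl libraries in CPM for 4 of the 10 genes, the same 4, and for 51.8% of all genes. The median log2 fold change of the 10 genes was -0.13, beside -0.01 for all tested genes. Because a fall in this contrast chose the group, these counts describe it and nothing is read from them.

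**Figure D1:**
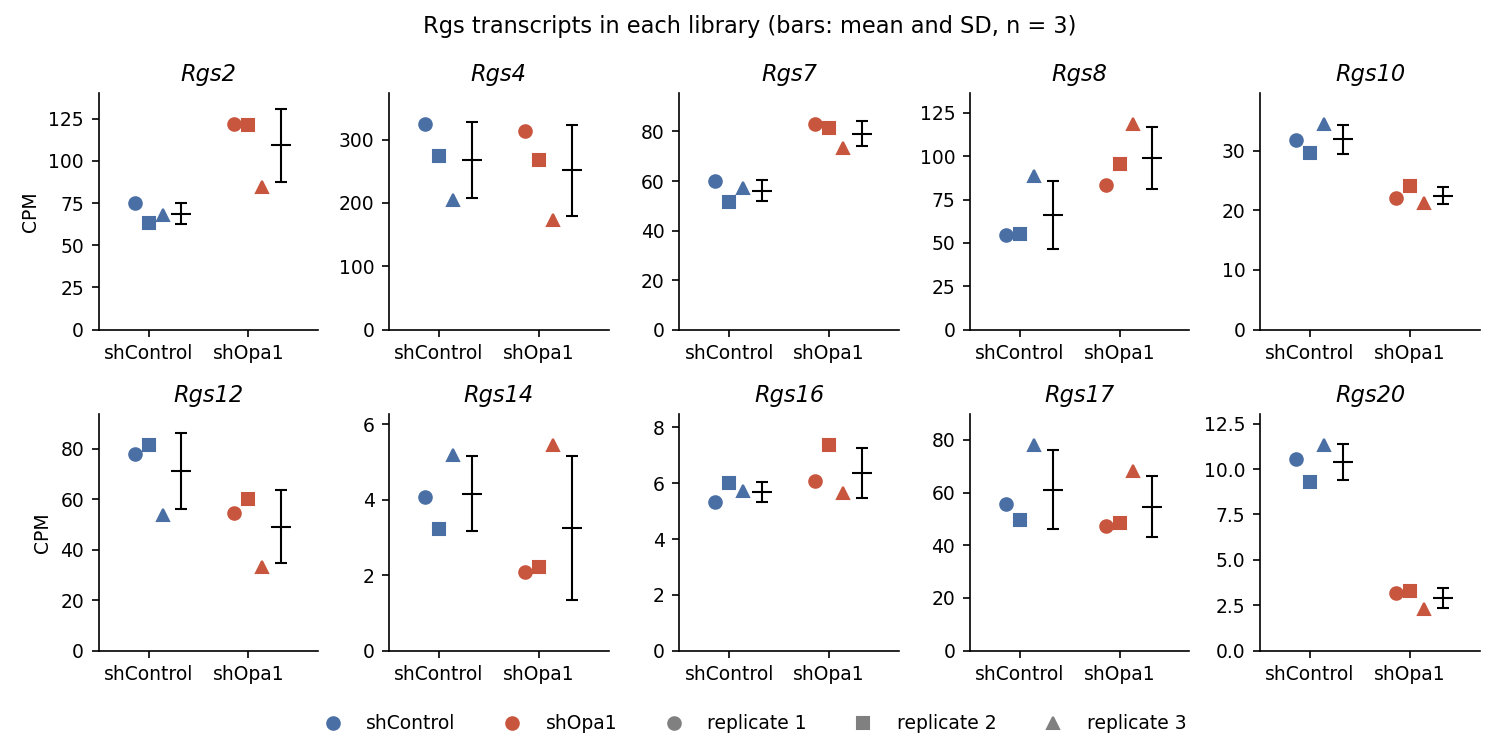
CPM of the 10 Rgs genes in each library, one panel per gene with its own axis from 0; colours are the groups, shapes the replicate numbers, and bars the mean and SD of 3 libraries. The groups do not overlap for Rgs2, Rgs7, Rgs10 and Rgs20, and replicate 3 stands apart in both groups for Rgs4, Rgs8, Rgs12 and Rgs17.

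The RZ gene Rgs20 (ENSMUSG00000002459, GRCm38 chr1:4909576-5070285, minus strand) encodes a palmitoylated protein that acts on Gz and Gi alpha subunits. It was counted 252, 249 and 305 times in shControl and 98, 113 and 75 times in shOpa1, although the shOpa1 libraries were the deeper ones. The corresponding levels were 10.6, 9.30 and 11.3 CPM against 3.16, 3.30 and 2.29 CPM. Every shOpa1 library lay below every shControl library, with replicate 3 holding both the highest shControl and the lowest shOpa1 value. The mean went from 10.4 ± 1.01 to 2.92 ± 0.545 CPM (SD, n = 3), a log2 fold change of -1.83 ± 0.17 (SE), and the differences within the numbered pairs were -1.597, -1.37 and -2.08. Of the exon bases of Rgs20, 5.95% are shared with the opposite-strand genes Gm17101 and Atp6v1h, and reads were counted without a strand option, so reads of opposite strands cannot be told apart there. Atp6v1h, a subunit gene of the vacuolar proton pump, went the other way, from 178 to 188 CPM in shControl to 237 to 258 CPM in shOpa1.

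Rgs17 (ENSMUSG00000019775, GRCm38 chr10:5825663-5922400, minus strand) encodes the closest relative of Rgs20 in the list, with the same Gz and Gi preference. Its levels were 55.5, 49.7 and 77.9 CPM in shControl and 47.2, 48.6 and 68.0 CPM in shOpa1. The groups overlapped, replicate 3 was the highest library of each, and each shOpa1 library lay below the shControl library of the same number. The log2 fold change of -0.16 ± 0.21 (SE) was not called, and its sign turned to 0.05 without shControl replicate 3. With the replicate number as a block it was -0.15 ± 0.06 and was called lower. The third RZ gene, Rgs19, also known as GAIP, is not among the 10 and is described below.

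In the R12 class all 3 genes had a negative log2 fold change. Rgs10 (ENSMUSG00000030844, GRCm38 chr7:128373621-128418758, minus strand) encodes a small protein, little more than an RGS domain, that acts on Gi-family subunits and is expressed in neurons and, strongly, in microglia. It was at 31.8, 29.6 and 34.4 CPM in shControl and 22.0, 24.1 and 21.2 CPM in shOpa1. The groups did not overlap, and the log2 fold change was -0.51 ± 0.09 (SE). Among microglial marker genes Aif1 was called lower, at 7.42, 4.75 and 5.78 CPM in shControl and 3.48, 2.66 and 2.81 CPM in shOpa1. Another 9 were too scarce to be tested, with P2ry12 at no more than 0.0419 CPM and Trem2 the highest at 0.545 CPM in 1 shControl library. These scarce markers did not share a direction. Csf1r was at 0.210, 0.187 and 0.148 CPM in shControl and at 0.483, 0.321 and 0.214 CPM in shOpa1. Itgam was at 0.0838, 0.0374 and 0.0371 CPM in shControl and at 0 in every shOpa1 library. The part of microglial RNA in the level of Rgs10 was not tested.

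Rgs12 (ENSMUSG00000029101, GRCm38 chr5:34949445-35039644, plus strand) encodes the largest protein of the class, with PDZ, Ras-binding and GoLoco regions beside the RGS domain. Its levels were 78.0, 81.3 and 53.8 CPM in shControl and 54.6, 59.9 and 32.9 CPM in shOpa1. Replicate 3 was the lowest library of both groups, so the groups overlapped although each pair moved the same way, by -0.51, -0.44 and -0.70. The log2 fold change was -0.53 ± 0.26 (SE) and not called without a block, and -0.55 ± 0.06 and called lower with it. The antisense gene Gm43791 shares 5.50% of the exon bases.

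Rgs14 (ENSMUSG00000052087, GRCm38 chr13:55369732-55384687, plus strand), which in mouse brain is best known from hippocampal area CA2 where it restrains synaptic plasticity, had the lowest level per length of the 10 genes in shControl. It was at 4.07, 3.21 and 5.19 CPM in shControl and at 2.09, 2.22 and 5.44 CPM in shOpa1. Libraries 1 and 2 of shOpa1 lay below all shControl libraries and library 3 above them all. The log2 fold change of -0.35 ± 0.40 (SE) was not called, and it was -0.95 and called lower without shOpa1 replicate 3.

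In the R7 class the listed gene was Rgs7 (ENSMUSG00000026527, GRCm38 chr1:175059087-175492500, minus strand), whose protein binds Gnb5 and ends signals of Go in neurons. It was at 59.9, 51.4 and 57.0 CPM in shControl and at 82.9, 81.2 and 73.3 CPM in shOpa1. The groups did not overlap, the log2 fold change was 0.50 ± 0.08 (SE), and the pairs differed by 0.47, 0.66 and 0.36.

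In the R4 class Rgs2 was called higher and Rgs8, Rgs4 and Rgs16 in neither direction, Rgs8 with a log2 fold change close to that of Rgs2 and the other two near 0. Rgs2 (ENSMUSG00000026360, GRCm38 chr1:143999338-144004161, minus strand), whose protein prefers Gq and whose transcript is known to be induced by neuronal activity and cAMP, was at 75.1, 63.1 and 68.2 CPM in shControl. In shOpa1 it was at 121.7, 121.5 and 84.4 CPM. All 3 shOpa1 libraries were above the highest shControl library, replicate 3 by the least. The log2 fold change was 0.67 ± 0.15 (SE), with pair differences of 0.69, 0.94 and 0.31. Without shControl replicate 2 it was 0.60 and no longer called.

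Rgs8 (ENSMUSG00000042671, GRCm38 chr1:153653025-153700323, plus strand), a brain-enriched regulator known to speed the opening and closing of G-protein-gated potassium channels, was at 54.5, 54.9 and 88.6 CPM in shControl and at 83.4, 95.4 and 118.4 CPM in shOpa1. Replicate 3 was the highest library of each group, and shControl replicate 3 lay above shOpa1 replicate 1. The log2 fold change was 0.58 ± 0.23 (SE) and not called without a block, 0.61 ± 0.07 and called higher with it, and 0.86 and called higher without shControl replicate 3.

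Rgs4 (ENSMUSG00000038530, GRCm38 chr1:169741477-169747642, minus strand), an abundant forebrain regulator of Gi/o and Gq signals, was at 324, 275 and 205 CPM in shControl and at 313, 268 and 173 CPM in shOpa1. The groups overlapped over most of their range. The log2 fold change was -0.09 ± 0.25 (SE), from -0.28 to 0.12 over all alternatives run, and was called in none. Rgs16 (ENSMUSG00000026475, GRCm38 chr1:153740349-153745468, plus strand), known for a role in the circadian clock of the suprachiasmatic nucleus, was at 5.32, 6.02 and 5.71 CPM in shControl and at 6.09, 7.36 and 5.65 CPM in shOpa1. Its groups overlapped as well, at a log2 fold change of 0.16 ± 0.14 (SE), and 10.1% of its exon bases are shared with the antisense gene Gm28513.

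**Figure D2:**
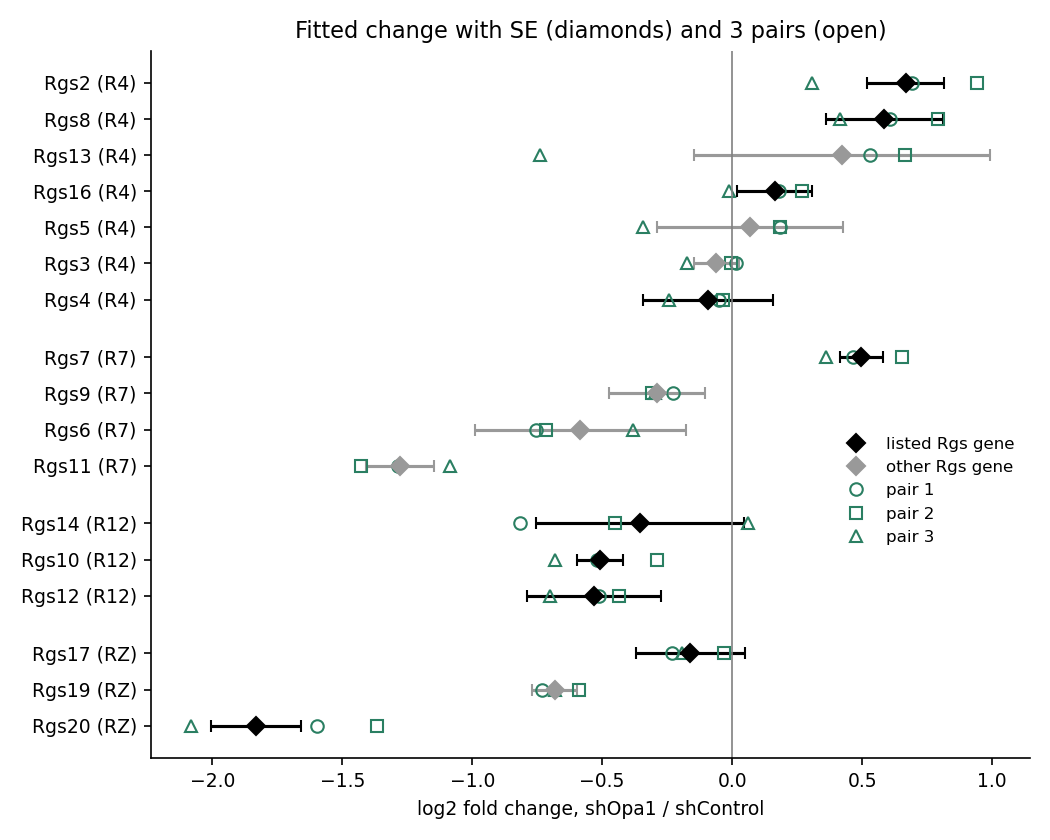
Log2 fold change (shOpa1 over shControl, horizontal axis) of the 17 tested Rgs genes ordered by class, with diamonds and bars for the fitted value and its SE (black for the 10 listed genes, grey for others) and open symbols for the 3 numbered pairs. Rgs20 lies farthest left, near -1.83, all R12 and RZ diamonds are left of 0, and Rgs2, Rgs7 and Rgs8 have their 3 pairs right of 0.

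Within the numbered pairs, 3 genes were higher in shOpa1 in all 3 pairs (Rgs2, Rgs7 and Rgs8), 5 were lower in all 3 (Rgs4, Rgs10, Rgs12, Rgs17 and Rgs20), and Rgs14 and Rgs16 were mixed. Over all genes 51.8% had groups that did not overlap, so at least that share went 1 way in all 3 pairs. The exact share was not counted, and nothing is read from the pair counts. With the replicate number as a block, 3 of the 10 were called higher and 4 lower, Rgs8, Rgs12 and Rgs17 being added to those above. The same fit called 59.5% of all genes, 28.8% higher and 30.7% lower. Of the 10 genes, 6 passed an adjusted p under 0.05 in the authors' deposited table, 3 higher (Rgs2, Rgs7 and Rgs8) and 3 lower (Rgs10, Rgs12 and Rgs20). The share of all genes that passed in that table was not counted, so nothing is read from this number. The terms of the authors' fit are not given here, and it need not match the group-only fit. Its SEs for Rgs8 and Rgs12, 0.085 and 0.083, were nearer to those with the block (0.068 and 0.060) than without it (0.23 and 0.26). For Rgs20 its SE of 0.20 was nearer to that without the block (0.17) than with it (0.15).

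Per kilobase of exon, on the scale of RPKM (CPM divided by exon length in kilobases), Rgs4 was the most abundant of the 10 in shControl, at 86.5 ± 19.3 (SD, n = 3). It was followed by Rgs2 at 19.0 ± 1.66 and Rgs10 at 18.7 ± 1.42, whose libraries overlapped. Rgs7 at 9.32 ± 0.717, Rgs12 at 8.37 ± 1.76, Rgs17 at 7.36 ± 1.80 and Rgs8 at 6.85 ± 2.03 RPKM formed the next tier in which each gene overlapped the next. Rgs20 at 2.45 ± 0.239 and Rgs16 at 2.43 ± 0.148 RPKM did not differ beyond their spread, and Rgs14 was lowest at 0.981 ± 0.234. In shOpa1 Rgs4 and Rgs2 remained first and second, at 81.1 ± 23.0 and 30.1 ± 5.92 RPKM. Rgs7 and Rgs10 shared the next place, both at 13.1 RPKM, and Rgs8 followed at 10.3 ± 1.85. Rgs20 was last, at 0.688 ± 0.129 RPKM, overlapping Rgs14 at 0.767 ± 0.447. Together the 10 genes made up 607 to 699 CPM in shControl and 585 to 736 CPM in shOpa1.

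**Figure D3:**
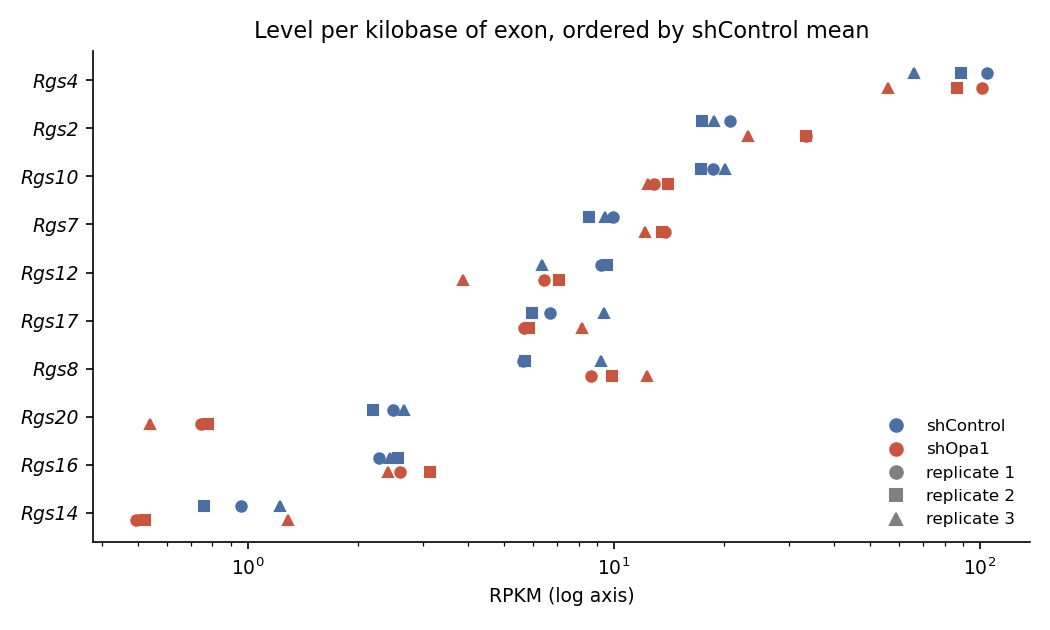
Level of each Rgs gene per kilobase of exon (RPKM, log axis) in the 6 libraries, genes ordered by their shControl mean; colours are the groups and shapes the replicate numbers. Rgs4 is highest in all libraries, Rgs20 moves from the level of Rgs16 to that of Rgs14, and Rgs7 and Rgs10 are level with each other in shOpa1.

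The levels of 6 of the 10 genes lay to the same side in replicate 3 of both groups. The share of all genes that did so was not counted, so nothing is read from this number. Against the mean of replicates 1 and 2, replicate 3 was higher in both groups for Rgs8 (by 0.69 in shControl and 0.41 in shOpa1, log2), Rgs17 (0.56 and 0.50) and Rgs14 (0.47 and 1.16). It was lower in both for Rgs12 (-0.56 and -0.79), Rgs4 (-0.54 and -0.74) and Rgs2 (-0.01 and -0.52). For Rgs2 in shControl, replicate 3 at 68.2 CPM lay between replicates 2 and 1, at 63.1 and 75.1 CPM. Rgs7, Rgs10, Rgs16 and Rgs20 had opposite signs in the groups. For Rgs4, Rgs8, Rgs12, Rgs14, Rgs16 and Rgs17 the shift of replicate 3 in at least 1 group was larger in size than the fitted difference between the groups. The summed level of 7 astrocyte markers was also highest in replicate 3 of each group, at 127 CPM beside 39.03 and 51.6 in shControl and at 68.7 beside 24.0 and 30.9 in shOpa1. Within that list S100b was highest in replicate 2 of both groups, Gfap in replicate 2 of shControl and Gja1 in replicate 1 of shOpa1. Replicate 3 was likewise highest in both groups for summed markers of the oligodendrocyte lineage (60.3 and 46.7 CPM) and of dividing progenitors (114 and 77.8 CPM). The same held for neurons, excitatory neurons, and pericytes and endothelium, but not for inhibitory neurons or microglia. Single markers did not all follow these sums. For example, Pdgfra of the oligodendrocyte lineage and the excitatory marker Neurod6 were lowest in replicate 3 of both groups. The progenitor marker Sox2 was highest in replicate 3 of shControl and lowest in replicate 3 of shOpa1. The part of these cell types in the levels of the Rgs genes was not tested.

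**Figure D4:**
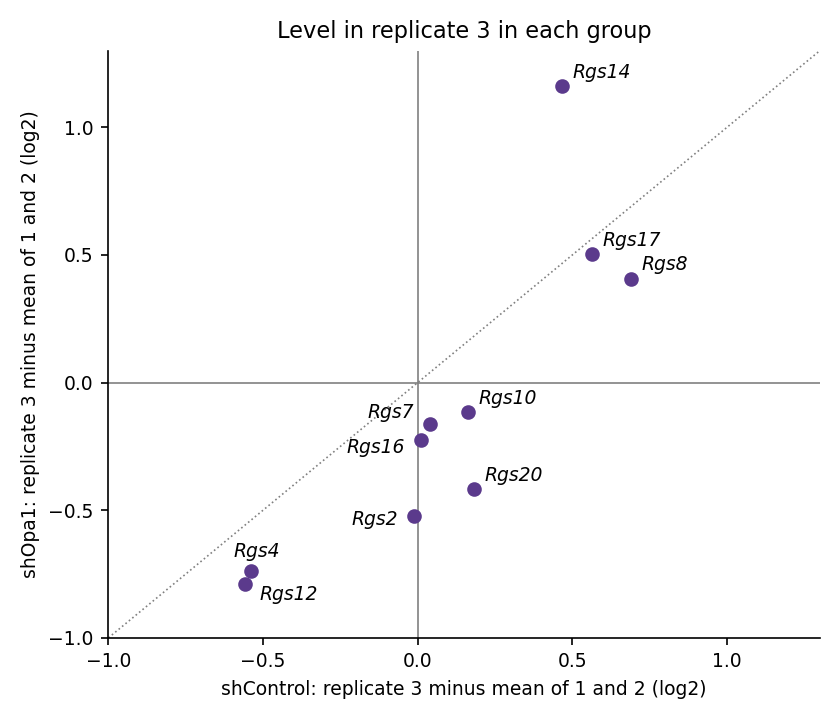
Replicate 3 minus the mean of replicates 1 and 2 (log2) in shControl (horizontal) and shOpa1 (vertical) for each Rgs gene; the dotted line marks equal shifts. Rgs8, Rgs14 and Rgs17 lie in the upper right and Rgs4 and Rgs12 in the lower left, while Rgs20 lies at 0.18 in shControl and -0.42 in shOpa1.

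On the genome 6 of the 10 genes lie on chromosome 1, among them Rgs8 and Rgs16, 40.0 kb apart on the same strand. Those neighbours differed in level, Rgs8 at 6.85 and Rgs16 at 2.43 RPKM in shControl, and in replicate 3, which stood out for Rgs8 in both groups and not for Rgs16. Rgs4 lies 45.7 kb from Rgs5 and Rgs2 134 kb from Rgs13, R4 genes that were scarce here, at 1.55 ± 0.343 and 1.43 ± 0.285 CPM in shControl.

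Of the 11 other Rgs genes 7 were tested, with 0 called higher and 2 lower by edgeR's quasi-likelihood test, beside 18.9% and 20.0% of all genes. At an unadjusted p under 0.05 the counts were the same, and DESeq2 also called 0 higher. Rgs11, an R7 gene best known from retinal bipolar cells, fell from 43.6 ± 2.53 to 18.0 ± 3.19 CPM (SD, n = 3), a log2 fold change of -1.28 ± 0.13 (SE, adjusted p = 0.000451 by edgeR). Rgs19, the third RZ gene, which acts on Gi subunits and binds the adaptor Gipc1, fell from 26.9 ± 1.78 to 16.7 ± 0.917 CPM, by 0.68 ± 0.09 on the log2 scale (adjusted p = 0.00107 by edgeR). Both were lower in all 3 pairs. The R7 genes Rgs6 and Rgs9, known for heart rate and striatal signalling, were at -0.58 ± 0.41 (edgeR adjusted p = 0.304) and -0.29 ± 0.18 (edgeR adjusted p = 0.256). With the replicate block both were called lower, Rgs6 at -0.62 ± 0.10 (edgeR adjusted p = 0.000289) and Rgs9 at -0.29 ± 0.07 (edgeR adjusted p = 0.00472). Rgs3, Rgs5 and Rgs13 were called in neither fit, and Rgs1, Rgs18, Rgs21 and Rgs22 were too scarce to be tested.

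Summed by class, the R12 genes went from 28.0 ± 0.635 RPKM in shControl to 19.7 ± 2.05 in shOpa1 and the RZ genes from 21.9 ± 2.80 to 14.8 ± 1.68, with no overlap of the groups. The R7 genes went from 24.0 ± 1.80 to 20.7 ± 0.801 RPKM, also without overlap, with Rgs7 higher and Rgs11 lower. The R4 genes, dominated by Rgs4, were at 118 ± 18.4 and 128 ± 27.9 RPKM and overlapped. These sums hold the genes that chose the group and are a description.

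The proteins that hold RGS proteins in place were examined next. Of 6 such partners and anchors all were tested, and 0 were called higher and 3 lower by edgeR, beside 18.9% and 20.0% of all genes, with a median log2 fold change of -0.36. An unadjusted p under 0.05 gave the same counts, and DESeq2 called 0 higher. Without shControl replicate 2, or without shOpa1 replicate 1, 1 was called lower, beside 2505 and 2567 of all genes. Gpr158, the receptor that recruits Rgs7 to the membrane, fell from 37.1 ± 5.16 to 28.9 ± 1.596 CPM (log2 fold change -0.36 ± 0.11 SE, edgeR adjusted p = 0.036). Gipc1 fell from 75.1 ± 2.90 to 60.6 ± 4.56 CPM (-0.31 ± 0.07, edgeR adjusted p = 0.0151). The third was Rgs9bp, the membrane anchor of Rgs9 in photoreceptors, which was too scarce for the rule on named genes and is named after its values were seen; it went from 1.78 ± 0.386 to 0.411 ± 0.0936 CPM (-2.11 ± 0.28, edgeR adjusted p = 0.00132). Rgs7bp, the palmitoylated anchor of R7 proteins in neurons, was at 208.6, 193.5 and 147.4 CPM in shControl and at 146.4, 141.8 and 73.4 CPM in shOpa1. Its groups did not overlap, by a narrow margin, and its log2 fold change of -0.60 ± 0.28 had an adjusted p of 0.132 by edgeR without a block and -0.65 ± 0.11 with 0.00431 by edgeR with it. Gnb5, the beta subunit that R7 proteins need for stability, was at 63.2 ± 4.57 and 69.2 ± 3.07 CPM (0.13 ± 0.07, edgeR adjusted p = 0.209 without and 0.045 with the block). With the block 1 partner was called higher and 4 lower, beside 28.8% and 30.7% of all genes.

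The G alpha subunits on which RGS proteins act were called lower in 7 of 13 tested cases and higher in 0 by edgeR, beside 20.0% and 18.9% of all genes, with a median log2 fold change of -0.27 (-0.51 without shOpa1 replicate 3). At an unadjusted p under 0.05, and by DESeq2, 1 was higher. Gnai3, a Gi subunit, fell from 74.0 ± 6.03 to 23.9 ± 2.00 CPM (log2 fold change -1.63 ± 0.09 SE, edgeR adjusted p = 5.49e-05). Gnal, which couples receptors to adenylyl cyclase in the striatum and olfactory system, fell by 1.07 ± 0.10, Gna13 by 0.71 ± 0.07, and Gnaq, which activates phospholipase C, by 0.69 ± 0.10 on the log2 scale. The most abundant alpha subunit, Gnao1, was at 1155 ± 24.9 and 1141 ± 38.3 CPM and was not called. Gnaz, the preferred substrate of RZ proteins, was at 141 ± 17.9 and 117 ± 12.6 CPM, a log2 fold change of -0.27 ± 0.11 (edgeR adjusted p = 0.0978 without and 0.000586 with the block). With the block 1 alpha subunit was called higher and 9 lower, beside 28.8% and 30.7% of all genes.

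Of 13 tested beta and gamma subunits 4 were called lower and 0 higher by edgeR, beside 20.0% and 18.9% of all genes, with a median log2 fold change of -0.32. Without the low-count filter, when scarcer subunits entered, the median was -0.21 by edgeR and -0.20 by DESeq2. At an unadjusted p under 0.05, 5 were lower and 0 higher, and DESeq2 called 0 higher. The 4 called lower were Gnb2, which fell by 0.52 ± 0.07 (SE), Gng7, a partner of Gnal in striatal neurons, by 0.52 ± 0.11, Gnb1 by 0.32 ± 0.06 and Gng3 by 0.25 ± 0.06. With the block 7 were called lower and 0 higher, beside 30.7% and 28.8% of all genes.

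Among 48 tested G-protein-coupled receptors, 2 were called higher, 12 lower and 34 in neither direction, beside 18.9% higher and 20.0% lower of all genes. The median log2 fold change was -0.30, and -0.10 without shControl replicate 3. With 1 library left out the number called higher ran from 0, without shControl replicate 1 or 2 or shOpa1 replicate 2, to 5, without shOpa1 replicate 3. Of all genes these fits called 2336, 2201, 2168 and 3168 higher, in the same order. The cannabinoid receptor gene Cnr1 fell from 217 ± 37.0 to 94.4 ± 4.55 CPM (log2 fold change -1.20 ± 0.12 SE, edgeR adjusted p = 0.00049). The neuropeptide Y receptor gene Npy2r fell by 1.498 ± 0.16, Mchr1, the receptor for melanin-concentrating hormone, by 1.12 ± 0.13, and the adrenoceptor gene Adra2c by 0.90 ± 0.12. With the block 4 were called higher and 23 lower, beside 28.8% and 30.7%.

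Downstream, 16 tested effector genes held 3 called higher and 8 lower, beside 18.9% and 20.0% of all genes, with a median of -0.37. Plcb1, the phospholipase C that Gq activates and that is itself able to speed GTP hydrolysis by it, fell from 147 ± 10.8 to 50.2 ± 8.59 CPM (log2 fold change -1.54 ± 0.13 SE, edgeR adjusted p = 0.000227). Plcb3 fell by 1.13 ± 0.20 and the adenylyl cyclases Adcy5 and Adcy1 by 0.79 ± 0.10 and 0.47 ± 0.08. The cyclase genes did not all go one way: Adcy3, Adcy7 and Adcy9, named because they are the 3 called higher, had log2 fold changes of 0.64 ± 0.12, 1.31 ± 0.32 and 0.43 ± 0.08. With the block 4 effectors were called higher and 10 lower, beside 28.8% and 30.7% of all genes.

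Receptor kinases and arrestins, which end the signal at the receptor, were called higher in 1 and lower in 1 of 7 tested cases. The shares of all genes were 18.9% higher and 20.0% lower. The median of 0.02 turned to -0.09 without shControl replicate 2 and to -0.01 without shOpa1 replicate 1. The kinase gene Grk3 fell by 0.75 ± 0.09 (SE) and Grk6 was higher by 0.32 ± 0.07. With the block 3 were called higher and 1 lower, beside 28.8% and 30.7% of all genes. Of 9 other modulators of G alpha subunits 1 was called higher and 6 lower, beside 18.9% and 20.0% of all genes. Their median was -0.32. Rap1gap2 fell by 0.97 ± 0.07, Ric8a, a chaperone and exchange factor for alpha subunits, by 0.75 ± 0.11 and Gpsm1, which holds Gi in its GDP form, by 0.45 ± 0.06, whereas Ric8b was higher by 0.33 ± 0.06. Of 9 other proteins with an RGS domain 1 was called higher and 4 lower, beside 18.9% and 20.0% of all genes, with a median of -0.24. Among those called were the sorting nexin genes Snx13 (-1.26 ± 0.08) and Snx25 (-0.93 ± 0.11), Arhgef12 (-0.34 ± 0.06) and Axin1 (0.42 ± 0.07). With the block the last list held 1 called higher and 7 lower, and the list before it 1 and 6. The block fit's shares of all genes were 28.8% and 30.7%.

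Over all 9 lists, of 128 tested genes 8 were called higher (6.25%) and 47 lower (36.7%), beside 18.9% and 20.0% of all genes. The summed level of 6 markers of excitatory neurons was 676 to 799 CPM in shControl and 408 to 475 CPM in shOpa1, and that of 6 markers of inhibitory neurons 1828 to 1892 and 1488 to 1727 CPM. Both sums were lower in shOpa1, but single markers went both ways: of 7 neuronal markers 2 were called higher (Syp and Nefl, at log2 fold changes of 0.55 and 0.37) and 4 lower, and of 6 inhibitory markers 1 was called higher (Gad2, 0.34) and 3 lower. Of the 6 excitatory markers 0 were called higher and 3 lower by edgeR. The part of these markers in the counts was not tested.

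**Figure D5:**
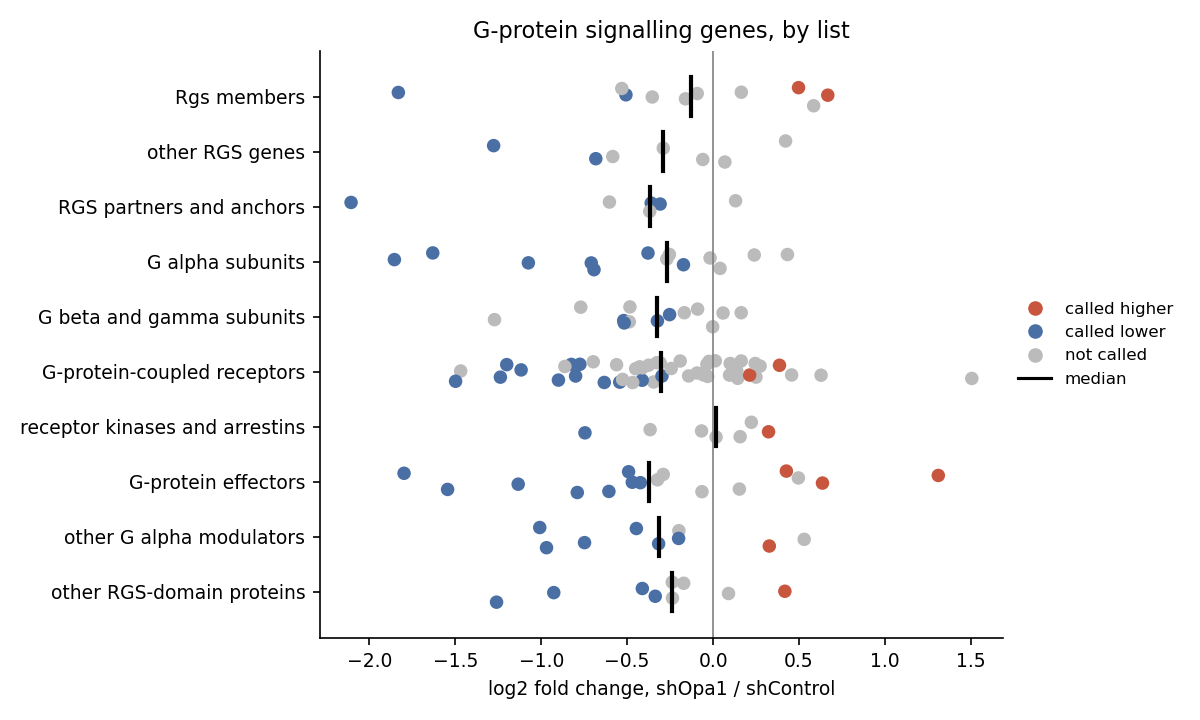
Log2 fold change (shOpa1 over shControl, horizontal axis) of each tested gene of the 10 Rgs genes and 9 lists of G-protein signalling genes; red points are called higher, blue lower, grey neither, and black bars are medians. The medians shown are below 0 except that of receptor kinases and arrestins, which is 0.02 and turns negative without shControl replicate 2 or shOpa1 replicate 1.

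The genes whose profile over the 6 libraries lay nearest to that of Rgs20, by Euclidean distance of centred log2 values among 12943 genes, were Snap47, Tpd52, Bhlhb9, Gmfb and Rhoq, at distances of 0.23, 0.23, 0.23, 0.23 and 0.27. Snap47, the nearest, went from between 397 and 415 CPM in shControl to between 116 and 142 CPM in shOpa1, and was lowest in replicate 3 of shOpa1, as Rgs20 was. By Pearson correlation over the same 6 libraries the nearest 5 were Rab2a, Dcaf6, Ggps1, Hipk1 and Mex3d, and 0 of 5 genes were shared by the 2 measures. The 6 libraries share the split by group, which dominates both measures.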

How the data were processed

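The authors deposited raw read counts per gene for 6 libraries, counted on GRCm38 with the Ensembl release 99 annotation by featureCounts 1.6.0 (read pairs, no strand option), per the file headers; HISAT2, DESeq2 and mm10 are named in the submitters' processing notes. The authors' deposited table of log2 fold changes and adjusted p-values was used only where it is named. The Rgs genes and all gene lists were chosen with earlier results of these data known. Symbols were found for 55144 of 55471 identifiers.

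Counts were fitted with edgeR 4.0.16 (TMM scaling, filterByExpr, robust quasi-likelihood fit, group as the only term) over 16562 genes with Benjamini-Hochberg adjustment at 0.05, in R 4.3.3, and the script was tested on simulated counts. CPM are per TMM-scaled library, RPKM use the deposited exon length, and log2 values per library carry a pseudocount of 0.5. Named genes were the 10 Rgs genes, Opa1, the rest of the family, the 5 genes nearest to Rgs20, the markers beside a result and, from each list, up to 4 called genes with the smallest p and a mean of at least 50 counts. Same-numbered libraries deviated together from their group means (r = 0.59, 0.61 and 0.71 across genes, which are not independent replicates), so numbers were taken as pairs, and alternatives were a block on the replicate number, RLE scaling, DESeq2 1.42.0, no filter, replicate 3 as a second batch, pairs 1 and 2 only and leaving out each library. No library repeated another, chi-square over its degrees of freedom being 6.11 to 30.8 within groups. The labels do not say whether replicates came from separate animals or cultures, so p-values reflect how these libraries vary, which may be technical. Totals of 24676709 to 32961580 reads set the counting error, which weighs most on genes with few counts. Promoters are from RefSeq (GRCm38.p6) and 3′ UTRs from GENCODE M21; proteins were not analysed here, and 1 marker gene is not reported here.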

Additional observations from a re-analysis of the deposited data

How the results depend on the processing

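As a description only, since the fall of Rgs20 in this contrast chose the group, the log2 fold changes over all alternatives were 0.43 to 0.57 for Rgs7, -0.56 to -0.40 for Rgs10 and -1.93 to -1.61 for Rgs20, and Rgs2 was not called without shControl replicate 2 (0.60). Rgs17, called lower with the replicate block, was at 0.05 without shControl replicate 3. With the replicate block 4770 of all genes were called higher and 5081 lower, 4 of the 10 Rgs genes lower, and 15 of the signalling genes higher and 71 lower; the block added calls and ended none among the Rgs genes. With replicate 3 as a second batch 4 Rgs genes were lower and 13 signalling genes higher, beside 4832 of all genes lower and 4521 higher. With pairs 1 and 2 only 4 Rgs genes were lower and 17 signalling genes higher, beside 4353 and 4143 of all genes. Leaving out 1 library at a time gave 1 to 3 Rgs genes higher, 2 to 3 lower, and 5 to 13 signalling genes higher, a range from 5 without shControl replicate 1 or 2 to 13 without shOpa1 replicate 3. The same fits called 2168 to 3168 of all genes higher and 2421 to 3458 lower, fewest without shOpa1 replicate 2 and most without shOpa1 replicate 3. DESeq2 called 3 Rgs genes higher, Rgs8 being added, and 2 lower, beside 3166 and 3268 of all genes. Rgs14 passed without shOpa1 replicate 3 (-0.95) and in pairs 1 and 2 (-0.74), Rgs6 without shOpa1 replicate 3 (-1.11). The cause of these changes was not tested. RLE scaling left every count of Rgs genes as it was, and the median log2 fold change of all genes lay between -0.018 and -0.0047 under all alternatives. The SE of Rgs14, counted 65 to 178 times, was 0.40 in the fit without a block and 0.19 with it.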
